A study of Homo sapiens with 12 samples.

Results

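The drug effect described here is the mean difference between 6 palbociclib and 6 vehicle tumours, with the stage of the experiment as a block. It asks which human genes were higher or lower in drug-treated tumours over the end of treatment and the recovery period jointly. All 12 tumours of the study entered, 3 in each of 4 groups. They were xenografts of the human line MCFDCIS, a basal-type breast epithelial line of the MCF10A lineage, started by subcutaneous injection into athymic nude mice, which lack mature T cells. After 2 weeks of growth, the palbociclib groups received 50 mg/kg by oral gavage each day and the vehicle groups received vehicle. The initial groups were labelled as 2 weeks of palbociclib or of vehicle. The recovery groups were labelled as the same treatments followed by a recovery of unstated length. All 4 groups share the 1 line and the immunodeficient host, and the labels do not tie tumours to separate mice. Each title holds a code with a number and L or R, no number occurs in more than 1 title, and the meaning of the code is not stated.

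Palbociclib blocks the kinases CDK4 and CDK6, which with D-type cyclins phosphorylate the retinoblastoma protein RB1 and so release the E2F programme of DNA replication. Genes of mitosis follow later in the cycle. Solid tumours also run a low-oxygen programme, in which hypoxia-inducible factors raise genes of glucose uptake, glycolysis, lactate export, blood vessel growth and mitophagy. Metallothioneins are small cysteine-rich proteins that bind zinc and copper, and their genes respond to metals and to stress.

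Counts on genes, human and mouse together, ranged from 8004903 to 15716211 per library, and 14.2% to 25.4% of them fell on genes of the mouse host. All 8 epithelial markers were expressed in every library. KRT5 lay between 976 and 1914 CPM (counts scaled to a common human library size) and KRT17 between 2938 and 5017 CPM, while KRT6A varied from 25.5 to 549 CPM. CDKN2A and CDKN2B, which the MCF10A lineage lacks, had 0 counts in all 12. The human copies of 23 host cell markers summed to 673 to 778 CPM in palbociclib initial, 675 to 975 in vehicle initial, 544 to 1065 in palbociclib recovery and 811 to 1311 in vehicle recovery tumours. Levels differed between these markers. CSPG4 had 325 to 1085 CPM, COL3A1 67.4 to 212, PECAM1 38.9 to 114, KDR 12.6 to 48.4 and CSF1R 3.89 to 16.6 CPM, while CD68, CD163, ADIPOQ, FABP4 and CD3E never had more than 2 counts. The source of these reads, the line or the host, was not tested. Some libraries stood apart. On the first principal component vehicle recovery library 2 had a score of 113.4, where the other 11 ran from -37.6 to 14.2, and limma's voom gave it a sample weight of 0.115 where the others had 0.698 to 2.225. The mitochondrial share of human counts was 5.32% in vehicle initial library 2 and 11.2% in vehicle initial library 3, and at most 2.64% elsewhere. Fewer cells of a type and less RNA per cell cannot be told apart in these bulk samples.

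Of the genes that differed over both stages, 9 belonged to lists of hypoxia and glycolysis genes, and MT2A and MT1X are metallothioneins. The hypoxia and glycolysis lists held 52 of the 18628 genes tested and were written with earlier results of these data known. With stage as a block, 20 of 18628 human genes passed edgeR's quasi-likelihood test at a Benjamini-Hochberg adjusted p under 0.05, which is 0.107% of the genes tested. Of these, 18 were lower in palbociclib tumours (0.0966%) and 2 were higher (0.0107%). All 20 had the same sign at both stages, where 60.1% of all genes tested had equal signs, although a passing mean favours equal signs. At both stages the 3 palbociclib and the 3 vehicle tumours did not overlap in 19 of the 20, the exception being P4HA1 after recovery. Such separation in 1 direction held for 3.01% of all genes tested, although passing the test on the same values favours it too. In MT1X, SLC6A8 and ADAM8 every one of the 6 palbociclib tumours lay below every one of the 6 vehicle tumours, and 94 genes tested had this property in either direction.

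The count of 20 depends on the fit. Adjusted p-values of the 20 ran from 0.0337 to 0.0493 by edgeR's quasi-likelihood test, and 46 further genes had values between 0.05 and 0.06. At an unadjusted p under 0.05, 14.6% of genes passed. No gene passed once any 1 of palbociclib initial libraries 1, 2 and 3, palbociclib recovery libraries 1 and 3 or vehicle initial library 3 was left out, with 2144 to 2747 genes at an unadjusted p under 0.05 in those edgeR fits. Counts in the other 6 such fits ran from 12 to 369. In all 12 of these fits and all 11 other settings the 20 genes kept their direction, and the largest unadjusted p of any of them was 0.0043. These fits reuse libraries on which the 20 were chosen, which favours kept directions and small p-values. Fitted to the same 12 libraries, DESeq2 and limma's voom each called all 20 among 754 and 284 genes, 4.05% and 1.52% of those tested. Other fits called fewer. None of the 20 passed with the mouse share of counts or the share of the last row that names no gene as a covariate (1267 and 2723 genes at an unadjusted p under 0.05 in these edgeR fits), and 1 of the 20 passed without vehicle initial libraries 2 and 3. By direction, DESeq2 called 3.23% lower and 0.821% higher, and voom 1.02% lower and 0.505% higher.

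Stage by stage, the log2 fold change was larger in size initially in 18 of the 20, MT1X and FAM210A being the exceptions. Tested alone in a fit of 4 group means, the initial effect passed in 16 of the 20, against 1.84% of all genes. MT2A, MT1X, ADAM8 and FAM210A did not pass there, at edgeR adjusted p = 0.056, 0.056, 0.064 and 0.070. The recovery effect alone passed in none of the 20 (all 20 had an unadjusted p under 0.05, at most 0.0078) and in 1 of all genes (0.00537%). As a share of the initial log2 fold change, the recovery effect ranged from 36.7% in PPP1R15A to 126% in MT1X, with a median of 68.3%. Choice by the block favours similar effects at both stages. Among the 398 genes whose mean effect passed in the fit of 4 group means the median was 33.9%. The test of the difference between stages passed in none of the 20 and in 0.22% of all genes. The smallest edgeR adjusted p among the 20 was 0.216, in PPP1R15A. The 95% interval of the difference, a normal approximation, excluded 0 in 8 of the 20 before adjustment. INSYN2B was among these, although edgeR's unadjusted p for its difference was 0.059. The block counts such a difference as spread, so genes with one were less likely to be among the 20. Their count in this test therefore shows nothing about persistence.

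**Figure D1:**
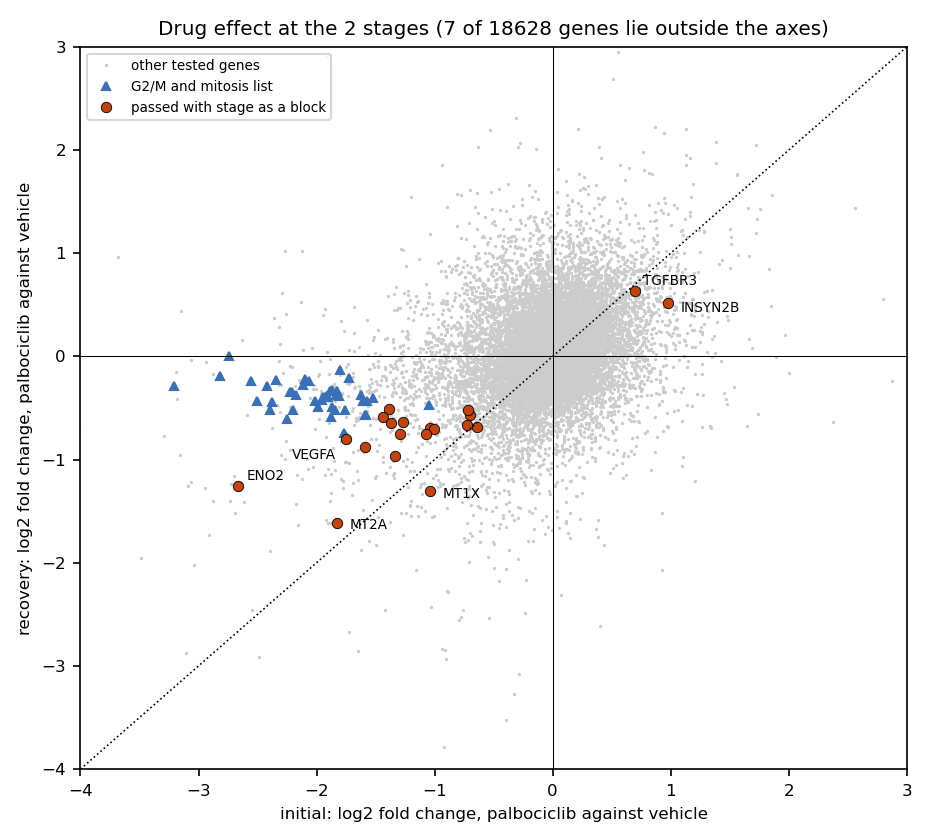
Log2 fold change of palbociclib against vehicle at the initial stage (horizontal axis) and after recovery (vertical axis) for each of 18628 human genes, from edgeR's fit of 4 group means, with 7 genes outside the axes. The 20 genes that passed with stage as a block (circles) lie in the quadrants of equal sign, and MT1X and FAM210A lie past the dotted line of equal effects. G2/M and mitosis genes (triangles) have a median of -1.93 on the horizontal axis and -0.39 on the vertical axis.

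The first of these genes belong to glucose uptake and glycolysis. ENO2, an enolase of glycolysis (GRCh38, chr12:6913745-6923698), stood at 4.36, 4.86 and 6.08 CPM in the palbociclib initial tumours and at 18.6, 45.3 and 33.7 CPM in the vehicle initial tumours. After recovery it stood at 25.1, 27.3 and 22.5 CPM with palbociclib and at 41.6, 66.3 and 71.2 CPM with vehicle. The groups did not overlap at either stage, and the palbociclib recovery tumours lay within the range of the vehicle initial ones. Its mean log2 fold change was -1.87 ± 0.29 (SE, edgeR adjusted p = 0.036), with -2.66 initially and -1.25 after recovery.

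SLC2A1, the glucose transporter GLUT1 (chr1:42925375-42959176), had 80.9, 80.6 and 106 CPM against 218, 350 and 238 CPM in vehicle tumours at the initial stage. After recovery the values were 255, 286 and 263 CPM against 377, 649 and 453 CPM. Both stages separated the groups, and vehicle recovery library 2 was the highest of the 12 tumours. The mean log2 fold change was -1.23 ± 0.18 (SE, edgeR adjusted p = 0.034), a 2.35-fold lower level over both stages.

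PFKFB3 makes the activator of phosphofructokinase, and SLC16A3 exports lactate. PFKFB3 went from 145 ± 44.2 to 59.3 ± 5.13 CPM at the initial stage and from 231 ± 57.6 to 138 ± 5.37 CPM after recovery, vehicle against palbociclib (SD, n = 3). Its mean log2 fold change was -1.02 ± 0.16 (edgeR adjusted p = 0.034). SLC16A3 stood at 48.9 ± 3.98 CPM with palbociclib and 132 ± 29.1 CPM with vehicle initially, then at 144 ± 14.6 and 216 ± 41.4 CPM (SD, n = 3), with a mean of -1.002 ± 0.17 (edgeR adjusted p = 0.043). GBE1, the branching enzyme of glycogen synthesis, had the smallest of the 18 lower effects at -0.62 ± 0.09, with the smallest unadjusted p, 4.12e-06 (edgeR adjusted p = 0.034). Its initial and recovery values were -0.72 and -0.52.

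Secreted and mitochondrial parts of the low-oxygen programme were lower too. VEGFA, the main growth factor of new blood vessels (chr6:43770184-43786487), had 105, 129 and 132 CPM with palbociclib against 355, 533 and 344 CPM with vehicle initially. After recovery it had 356, 399 and 231 CPM against 459, 593 and 661 CPM. Here the recovery groups came close, 399 against 459 CPM at their nearest tumours, and the mean log2 fold change was -1.27 ± 0.21 (SE, edgeR adjusted p = 0.046).

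BNIP3 and BNIP3L are receptors on mitochondria that mark them for removal by autophagy. BNIP3 had 27.4, 28.6 and 27.9 CPM in palbociclib initial, 60.2, 86.1 and 70.4 CPM in vehicle initial, 69.7, 83.3 and 51.6 CPM in palbociclib recovery and 93.2, 123 and 104 CPM in vehicle recovery tumours. The palbociclib initial tumours were tight and lowest, and the mean log2 fold change was -0.995 ± 0.16 (edgeR adjusted p = 0.034). BNIP3L followed with -0.63 ± 0.11 (edgeR adjusted p = 0.043), at -0.70 initially and -0.56 after recovery. ERO1A, an oxidase that forms disulphide bonds in the endoplasmic reticulum, had -0.91 ± 0.14 (edgeR adjusted p = 0.034). P4HA1, a subunit of the enzyme that hydroxylates prolines of collagen, had -0.87 ± 0.14 (edgeR adjusted p = 0.034), and its highest palbociclib recovery tumour, at 181 CPM, passed its lowest vehicle recovery tumour, at 179 CPM.

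**Figure D2:**
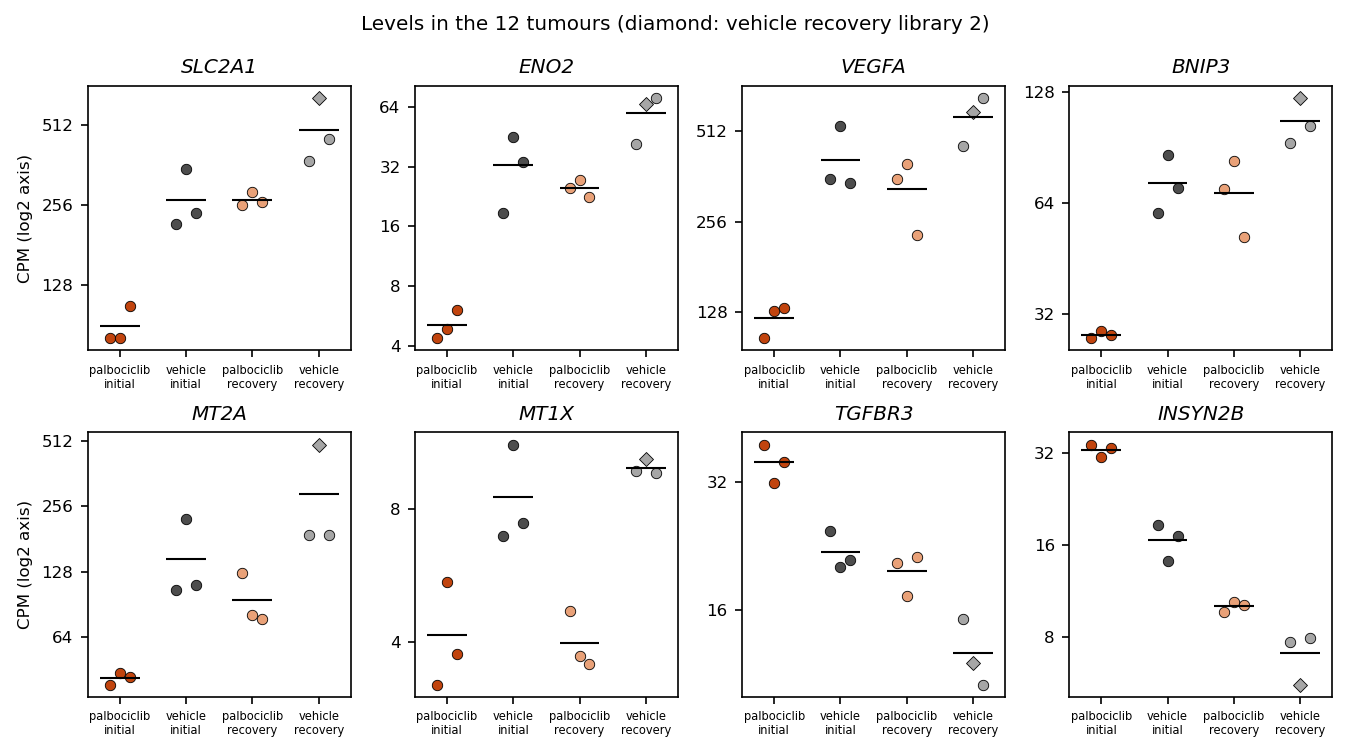
CPM on a log2 axis of 8 genes that passed, 1 point per tumour and a bar at the mean of the 3 tumours of each group, with a diamond for vehicle recovery library 2. In the 6 lower genes vehicle tumours lie above palbociclib tumours at each stage, and in TGFBR3 and INSYN2B they lie below. For SLC2A1, ENO2, VEGFA, BNIP3 and MT2A, though not MT1X, at least 1 palbociclib recovery point reaches the range of the vehicle initial points.

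MT2A and MT1X, in the metallothionein cluster of chromosome 16 (chr16:56608199-56609497 and chr16:56682424-56684196), were lower over both stages. MT2A had 38.8, 43.9 and 42.0 CPM with palbociclib and 106, 225 and 111 CPM with vehicle initially, then 127, 81.0 and 77.7 CPM against 189, 493 and 190 CPM after recovery. Vehicle recovery library 2 was far above its 2 replicates. The mean log2 fold change was -1.72 ± 0.27 (SE, edgeR adjusted p = 0.043), at -1.83 and -1.61 by stage (95% interval of the difference -1.33 to 0.90), and without that library the recovery value was -0.99.

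MT1X had 3.21, 5.48 and 3.76 CPM in palbociclib initial, 6.93, 11.2 and 7.43 CPM in vehicle initial, 4.69, 3.71 and 3.57 CPM in palbociclib recovery and 9.71, 10.4 and 9.63 CPM in vehicle recovery tumours. It is the only one of the 18 lower genes whose palbociclib mean was not above its initial level after recovery, at 3.99 ± 0.613 against 4.15 ± 1.18 CPM (SD, n = 3). The mean log2 fold change was -1.18 ± 0.18 (SE, edgeR adjusted p = 0.034), -1.04 initially and -1.31 after recovery. Of the 5 measured members of the metallothionein list these 2 passed. MT1E (-1.30, edgeR adjusted p = 0.079) and MT1F (-1.02, edgeR adjusted p = 0.12) did not, and SLC30A1, a zinc exporter under the same metal-responsive control, had -0.07 (edgeR adjusted p = 0.88). Metallothionein genes are close copies of each other, so the way reads were shared between them is uncertain.

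The sequences before the starts of both metallothionein genes are shown because metal-response elements are known there. They are the 250 bases upstream of the RefSeq start on GRCh38.p14, MT2A at chr16:56608334-56608583 and MT1X at chr16:56682220-56682469, both on the plus strand. Capitals mark TGCACNC or TGCGCNC on either strand, forms of the metal-response element that were looked up after the values were seen.
MT2A: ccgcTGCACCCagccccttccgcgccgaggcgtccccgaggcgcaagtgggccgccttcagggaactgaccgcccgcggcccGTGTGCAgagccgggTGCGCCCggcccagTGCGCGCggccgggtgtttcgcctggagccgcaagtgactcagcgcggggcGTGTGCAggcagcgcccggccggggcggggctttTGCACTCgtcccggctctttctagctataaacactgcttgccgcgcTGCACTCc
MT1X: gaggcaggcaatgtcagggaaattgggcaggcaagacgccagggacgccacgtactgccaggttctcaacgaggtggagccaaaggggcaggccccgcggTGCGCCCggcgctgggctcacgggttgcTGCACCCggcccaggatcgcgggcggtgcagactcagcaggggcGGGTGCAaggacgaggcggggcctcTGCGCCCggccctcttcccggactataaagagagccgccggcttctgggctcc
MT2A held 7 such matches and MT1X held 4. At least 1 TGCACNC was found in 2 of the 16 lower genes with a promoter in the table, these 2, and in 9.49% of the promoters of genes tested. TGCGCNC stood in 7 of the 16 and in 25.6% of those of genes tested.

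For the low-oxygen genes the motif was ACGTG, a core to which hypoxia-inducible factors bind. It was present on either strand in 7 of the 16 promoters of lower genes (43.8%) and in 4 of the 7 that belong to the hypoxia or glycolysis lists. The share was 22.8% among promoters of genes tested and 18.7% among all 27305 in the table. The upstream 250 bases of ENO2 (chr12:6914330-6914579, plus strand), BNIP3 (chr10:131981924-131982173, minus strand) and P4HA1 (chr10:73096867-73097116, minus strand) are shown as holders of it, with ACGTG in capitals. The GENCODE 29 spans of all 5 genes printed here overlap these windows, since some of their transcripts start further upstream.
ENO2: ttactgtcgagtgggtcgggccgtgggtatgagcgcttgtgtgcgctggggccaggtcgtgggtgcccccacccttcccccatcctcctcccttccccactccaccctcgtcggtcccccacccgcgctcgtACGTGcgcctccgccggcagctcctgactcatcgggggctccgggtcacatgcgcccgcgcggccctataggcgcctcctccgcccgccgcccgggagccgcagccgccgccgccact
BNIP3: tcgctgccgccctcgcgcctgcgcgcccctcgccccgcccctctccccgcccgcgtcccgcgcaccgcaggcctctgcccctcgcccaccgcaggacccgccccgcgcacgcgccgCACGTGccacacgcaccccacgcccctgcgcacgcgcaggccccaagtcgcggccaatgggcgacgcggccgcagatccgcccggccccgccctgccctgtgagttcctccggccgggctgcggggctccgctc
P4HA1: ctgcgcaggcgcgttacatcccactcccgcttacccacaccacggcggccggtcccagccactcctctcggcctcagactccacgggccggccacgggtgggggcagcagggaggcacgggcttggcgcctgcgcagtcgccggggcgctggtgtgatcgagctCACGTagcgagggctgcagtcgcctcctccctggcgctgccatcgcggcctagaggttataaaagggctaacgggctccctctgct
The CACGTG of BNIP3 reads ACGTG on both strands and was counted as 2 matches. TTTGAA, the core of the element shared by many mitotic promoters, was in 0 of the 16, against 8.89% of promoters of genes tested. These matches describe letters in a window and say nothing of binding.

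Seen over the whole programme, 25 of 27 measured genes of the hypoxia list and 22 of 25 of the glycolysis list were lower at both stages, with 5 and 4 past the test. Of all 18628 genes tested, 5608 were lower at both stages. The lists were written with earlier results of these data known. Their median log2 fold changes were -0.63 and -0.52, against 0.00 over all genes tested. In 14 and 12 members the groups were separated at both stages in the lower direction, as in 1.78% of all genes. NDRG1 (-2.16, edgeR adjusted p = 0.0501), PGK1 (-0.54, edgeR adjusted p = 0.0501) and the carbonic anhydrase CA9 (-1.93, edgeR adjusted p = 0.0501) stood at the edge of the threshold. CA9 had 1.69, 1.65 and 1.25 CPM against 10.5, 14.7 and 10.4 CPM initially, and 8.30, 14.1 and 5.69 CPM against 14.0, 30.4 and 23.4 CPM after recovery, where the groups touched. Without vehicle recovery library 2 the medians of the recovery effect moved from -0.56 to -0.43 in the hypoxia list and from -0.39 to -0.28 in the glycolysis list. In that fit 10 and 7 members passed, against 0.703% of all genes. PGK1 was among them, at edgeR adjusted p = 0.022.

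Not every member took part. STC1, a secreted glycoprotein often raised in low oxygen, had 0.16 (edgeR adjusted p = 0.73), DDIT4, an inhibitor of mTOR complex 1, had -0.04 (edgeR adjusted p = 0.94), and LDHB, the heart-type lactate dehydrogenase, had -0.08 (edgeR adjusted p = 0.82). The highly expressed enzymes ENO1 and GAPDH had -0.20 and -0.32 (edgeR adjusted p = 0.38 and 0.17).

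**Figure D3:**
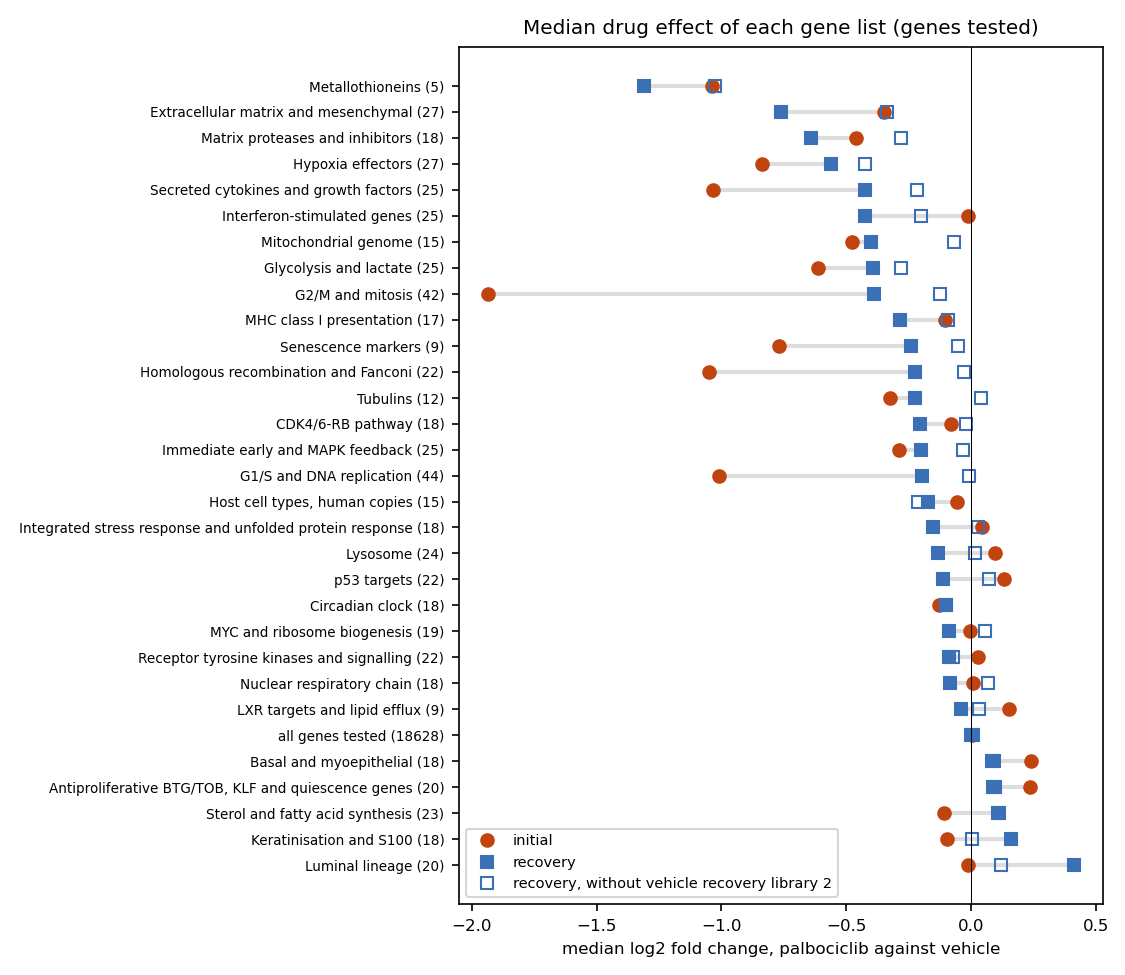
Median log2 fold change of each gene list, identity lists left out, palbociclib against vehicle, at the initial stage (circles), after recovery (filled squares) and after recovery without vehicle recovery library 2 (open squares), with the number of genes tested in brackets. Hypoxia and glycolysis lists lie below 0 at both stages, the G2/M list goes from -1.93 to -0.39 and to -0.12 without that library, and all genes tested lie at 0.

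The other genes that passed come from several pathways. SLC6A8, the creatine transporter, had 38.6, 50.6 and 41.1 CPM against 86.7, 152 and 90.6 CPM initially and 84.0, 85.9 and 75.3 CPM against 116, 208 and 153 CPM after recovery. Its mean log2 fold change was -1.15 ± 0.17 (SE, edgeR adjusted p = 0.034), -1.34 and -0.96 by stage. All 6 palbociclib tumours lay below all 6 vehicle tumours, the nearest being 85.9 and 86.7 CPM.

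Signalling and stress genes came next. DUSP10, a phosphatase that switches off the kinases p38 and JNK, had 8.91, 8.68 and 10.6 CPM against 18.0, 30.0 and 19.9 CPM, and after recovery 25.9, 27.3 and 27.0 CPM against 42.9, 41.6 and 40.3 CPM. The 3 tumours of each recovery group nearly coincided, and the mean log2 fold change was -0.93 ± 0.14 (SE, edgeR adjusted p = 0.034). PPP1R15A, the phosphatase subunit that lifts the translation block of the integrated stress response, had 28.7 ± 2.19 CPM against 75.2 ± 12.3 CPM and then 75.0 ± 13.9 against 107 ± 11.2 CPM (SD, n = 3). It kept the smallest share of its initial effect, -0.51 of -1.39, and was the only 1 of 18 measured genes of the stress response list to pass (-0.94 ± 0.16, edgeR adjusted p = 0.049).

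ADAM8, a membrane-bound protease, had -0.72 and -0.66 at the stages (95% interval of their difference -0.55 to 0.43), with a mean of -0.69 ± 0.12 (SE, edgeR adjusted p = 0.046). Its palbociclib tumours had 7.39, 5.89 and 8.30 CPM initially and 9.56, 9.38 and 9.76 CPM after recovery, against 11.8, 11.4 and 12.5 CPM and 14.2, 13.2 and 18.2 CPM with vehicle. FAM210A, which encodes a mitochondrial protein, had -0.64 and -0.68 (mean -0.66 ± 0.11, edgeR adjusted p = 0.035). TNFAIP8L1, of the TNFAIP8 family, had -0.84 ± 0.15 (edgeR adjusted p = 0.049) from levels of 4.09 to 11.6 CPM in the group means.

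Only TGFBR3 and INSYN2B were higher. TGFBR3 encodes betaglycan, a coreceptor of TGF-beta. It had 39.1, 31.8 and 35.5 CPM with palbociclib against 24.4, 20.2 and 20.9 CPM initially, and 20.6, 17.3 and 21.2 CPM against 15.2, 12.02 and 10.7 CPM after recovery. The effects were 0.70 and 0.63, with a mean of 0.67 ± 0.11 (SE, edgeR adjusted p = 0.034). INSYN2B had 34.2, 31.2 and 33.2 CPM against 18.6, 14.2 and 17.1 CPM, then 9.64, 10.4 and 10.2 CPM against 7.70, 5.58 and 7.94 CPM, a mean of 0.77 ± 0.13 (edgeR adjusted p = 0.035). In both genes both treatments had lower means after recovery than initially, and palbociclib tumours were the higher ones at each stage.

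The vehicle tumours also differed between stages in the 18 lower genes. In all 18 the vehicle recovery mean was above the vehicle initial mean, and in 17 the palbociclib recovery mean was above the palbociclib initial mean. In 17 of the 18 all 3 palbociclib initial tumours lay below the other 9 tumours, MT1X being the exception. The palbociclib recovery range overlapped the vehicle initial range in 15. Vehicle recovery library 2 was the highest of all 12 tumours in 12 of the 18 genes, and vehicle initial library 2 the highest of its group in 16.

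Without vehicle recovery library 2, in a fit to the other libraries on which the 20 genes were chosen, all 20 kept equal signs at both stages. Of the 20, 12 passed among 136 genes (0.703%). Those not past the test were ENO2, MT2A, VEGFA, SLC2A1, PFKFB3, SLC16A3, BNIP3 and ERO1A, at edgeR adjusted p between 0.055 and 0.079. The 12 were MT1X, SLC6A8, PPP1R15A, DUSP10, P4HA1, TNFAIP8L1, ADAM8, FAM210A, BNIP3L, GBE1, TGFBR3 and INSYN2B. Recovery effects of the 20 were then 61.5% to 113% of those with all libraries, with a median of 76.8%, and mean effects 84.3% to 106%. All 136 genes had equal signs, 94 of them lower (0.486%) and 42 higher (0.217%), and 131 were also called by voom with sample quality weights on all 12 libraries. Since voom gave vehicle recovery library 2 a weight of only 0.115, the 2 fits are close to each other by design.

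**Figure D4:**
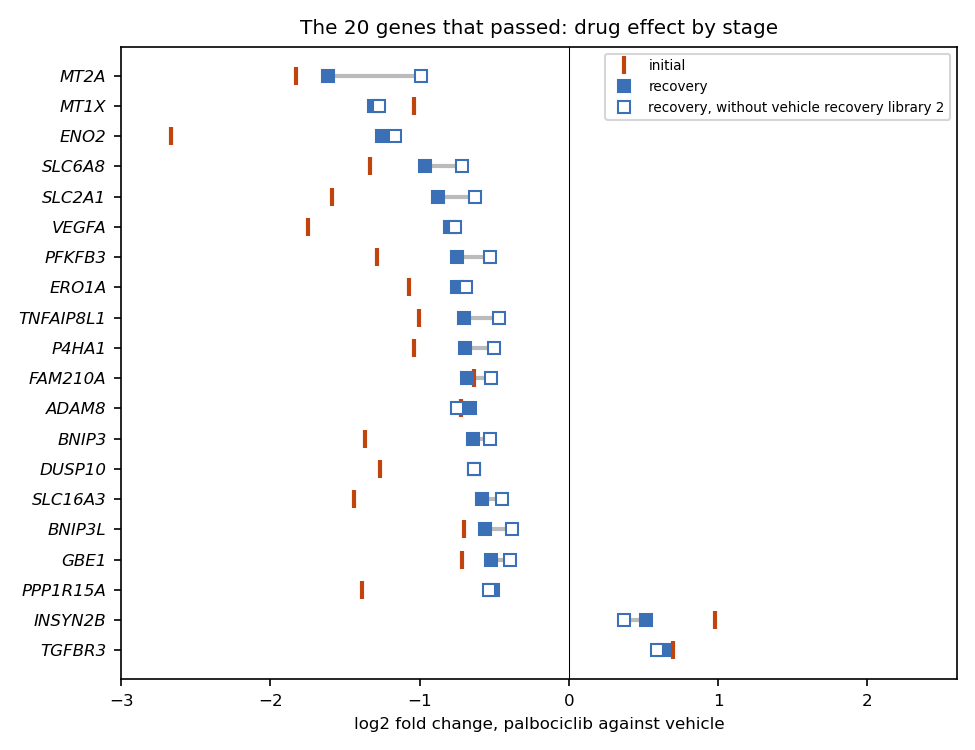
Log2 fold change of palbociclib against vehicle for the 20 genes that passed, at the initial stage (upright bars), after recovery with all libraries (filled squares) and after recovery without vehicle recovery library 2 (open squares). All marks of a gene lie on the same side of 0, and the longest distance between the recovery marks is that of MT2A, from -1.61 to -0.99.

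The share of counts on mouse genes was higher on average in palbociclib tumours, a difference that did not pass after adjustment. Mouse genes took 19.98% ± 4.69 of counts in palbociclib initial tumours against 16.4% ± 0.963 in vehicle initial tumours, and 20.7% ± 1.44 against 16.3% ± 1.93 after recovery (SD, n = 3). The mean difference over stages was 3.94 percentage points (exact two-sided permutation within stages, p = 0.01, adjusted over 6 shares and totals p = 0.06, smallest possible p = 0.005). The initial groups overlapped, with 16.95% and 17.6% in palbociclib libraries 1 and 2 and up to 17.4% with vehicle, while palbociclib initial library 3 had 25.4%. Without that library the initial difference was 0.83 in place of 3.53 points, the mean over stages was 2.59 points, and the exact permutation p was 0.02 (smallest possible 0.005). With the mouse share as a covariate the effects of the 20 genes were 85.5% to 124% of those without it. No gene then passed by edgeR, with adjusted p of 0.65 to 0.70 for the 20 and 1267 genes at an unadjusted p under 0.05. The part of the host share in the results was not tested beyond this fit. Mitochondrial shares did not pass this test (exact permutation p = 0.24), and without vehicle initial libraries 2 and 3 the effects of the 20 genes were 72.8% to 98.4% of those with them. In that fit 1 of the 20 passed, with edgeR adjusted p of up to 0.355.

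Genes of cell division, the process the drug acts on, had larger differences at the initial stage, and the test between stages passed in 14 of 42 on the G2/M list, against 0.22% of all genes. Of the 42 measured G2/M and mitosis genes, 0 passed with stage as a block by edgeR and 0 by voom with quality weights, 42 had an unadjusted p under 0.05, and DESeq2 called 40. Among all genes tested 14.6% had such an unadjusted p, DESeq2 called 4.05% and voom 1.52%. At both stages 41 of the 42 were lower, as were 5608 of all 18628 genes. In 16 of them the groups were separated at both stages in that direction, as in 1.78% of all genes. The median log2 fold change of the list was -1.93 initially and -0.39 after recovery, or -0.12 without vehicle recovery library 2. MKI67, the proliferation marker, had 37.7, 56.2 and 28.9 CPM against 185, 272 and 200 CPM initially, and 179, 187 and 185 CPM against 179, 244 and 248 CPM after recovery. Its recovery groups met at 187 and 179 CPM. The mean log2 fold change was -1.33 (edgeR adjusted p = 0.11), made of -2.42 and -0.29, and the stages differed (edgeR adjusted p = 0.012). TOP2A, which untangles DNA, had -2.23 and -0.34, with a mean of -1.27 (edgeR adjusted p = 0.11), and its recovery value was -0.11 without vehicle recovery library 2.

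A block counts a difference of the drug effect between stages as spread, and the fit of 4 group means does not. In that fit the mean of both effects passed in 398 genes (2.14%), 360 lower (1.93%) and 38 higher (0.204%), among them all 20 above and all 42 of the G2/M list. Of the 398, 388 had equal signs, 352 of them lower, yet the recovery effect was a median of 33.9% of the initial one.

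The test between stages passed in 4 of 44 genes of the G1/S and DNA replication list, against 0.22% of all genes. Of the 44, 0 passed with the block (38 lower at an unadjusted p under 0.05, 22 by DESeq2, 3 by voom), with medians of -1.01 initially and -0.20 after recovery. Without vehicle recovery library 2 the latter was -0.01. At both stages 39 of the 44 were lower, and 8 were separated in that direction, as in 1.78% of all genes. In the homologous recombination and Fanconi list the medians were -1.05 and -0.22, with 0 of 22 past the block test (17 lower at an unadjusted p under 0.05, 10 by DESeq2, 0 by voom). The recovery median of that list was -0.03 without vehicle recovery library 2. CCND1, the D-type cyclin that pairs with CDK4 and CDK6, had 293, 345 and 365 CPM against 183, 204 and 193 CPM initially, and 210, 223 and 259 CPM against 230, 243 and 230 CPM after recovery. Its effects were 0.79 and -0.02, with a mean of 0.38 (edgeR adjusted p = 0.19). CDKN1A, an inhibitor of cyclin-dependent kinases, was at -0.03 (edgeR adjusted p = 0.95), with a sign that turned under several settings. Of the 18 measured genes of the CDK4/6 and RB list, 0 passed (4 lower and 1 higher at an unadjusted p under 0.05, 1 by DESeq2, 0 by voom). Over all genes tested, both directions together, these shares were 14.6% at an unadjusted p under 0.05, 4.05% by DESeq2 and 1.52% by voom.

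Matrix and mesenchymal genes had medians of -0.35 initially and -0.76 after recovery, and 0 of 27 passed (13 lower and 1 higher at an unadjusted p under 0.05, 7 and 1 by DESeq2, 1 and 1 by voom). The shares of all genes tested, in either direction, were 14.6%, 4.05% and 1.52% in that order. COL6A1, a chain of collagen VI, had 255, 909 and 357 CPM in the vehicle recovery tumours against 167, 176 and 101 CPM with palbociclib. It had 218, 261 and 152 CPM against 116, 137 and 133 CPM initially, a mean of -1.25 (edgeR adjusted p = 0.099), and vehicle recovery library 2 held the value of 909. Without that library the median of the list after recovery was -0.34. MMP2, a gelatinase, had -0.59 and -1.15, with a mean of -0.88 (edgeR adjusted p = 0.076). Without vehicle recovery library 2 its recovery value was -0.69 and its mean -0.63, which passed (edgeR adjusted p = 0.011).

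Among secreted factors 0 of 25 passed (13 lower and 1 higher at an unadjusted p under 0.05, 6 lower by DESeq2, 1 and 1 by voom), with medians of -1.04 and -0.42, the latter -0.22 without vehicle recovery library 2. HBEGF, a ligand of the EGF receptor, was nearest, at -1.15 (edgeR adjusted p = 0.052). Early response and MAPK feedback genes had 0 of 25 (11 lower at an unadjusted p under 0.05, 8 by DESeq2, 3 by voom). Their 2 members nearest the threshold were the feedback inhibitors DUSP5 and SPRY2. DUSP5 had -0.43 and -0.44 by stage and SPRY2 had -0.37 and -0.48, both at edgeR adjusted p = 0.0501. Without vehicle recovery library 2 both passed, at edgeR adjusted p = 0.028 and 0.018. Luminal genes had 0 of 20 (5 higher and 1 lower at an unadjusted p under 0.05, 1 by DESeq2, 1 by voom), with FOXA1, a luminal transcription factor, at 0.18 and 0.96 (mean 0.56, edgeR adjusted p = 0.22). Beside the counts of these lists, 14.6% of all genes tested had an unadjusted p under 0.05 in either direction. DESeq2 called 4.05% of all genes tested and voom 1.52%. The antiproliferative gene BTG2 had 1.05 initially and 0.28 after recovery, a mean of 0.67 (edgeR adjusted p = 0.063), and passed without vehicle recovery library 2 at 0.77 (edgeR adjusted p = 0.018).

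In TUBBP6 and ABCA1 the larger difference was after recovery, though the test between stages did not pass (edgeR adjusted p = 0.22 and 0.25). TUBBP6, a tubulin pseudogene whose reads may belong to other tubulin copies, had 0.98, 1.34 and 1.06 CPM against 1.65, 2.13 and 2.69 CPM initially. After recovery it had 0.587, 0.464 and 0.424 CPM against 3.59, 4.91 and 2.99 CPM, and it was the gene that passed at that stage alone (-2.93, edgeR adjusted p = 0.017). Its mean was -1.88 (edgeR adjusted p = 0.0501), and passed without vehicle recovery library 2 at -1.70 (edgeR adjusted p = 0.026). ABCA1, a lipid exporter, had 0.12 initially and -1.61 after recovery, a mean of -0.81 (edgeR adjusted p = 0.24). Without vehicle recovery library 2 its recovery value was -1.17 and its mean -0.52.

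Over all genes tested, separation of the tumours at both stages was found for 331 in the lower direction and 229 in the higher direction (1.23%), and 65 (0.349%) were separated in opposite directions. At a single stage, separation in the lower direction was found for 11.3% initially and 5.5% after recovery, and in the higher direction for 9.39% and 6.32%. With groups of 3 these counts carry no test.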

How the data were processed

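RNA was sequenced from 12 MCFDCIS xenograft tumours with TruSeq libraries, per the labels' protocols. Each deposited file gives whole-number read counts by Ensembl identifier for both species. The builds GRCh38 and GRCm38 and the tools STAR, cutadapt, edgeR and CASAVA 1.8 appear in the submitters' processing notes. The sources used here do not give the counting program, the use of strand or the treatment of reads that match both species, so overlapping, antisense and near-identical genes are uncertain.

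The 4 rows of each file that name no gene held 37.0% to 69.1% of all counts and were left out. The 713 repeated rows of 484 identifiers, all with identical counts, were removed. Of 58243 human identifiers 57980 had a symbol in GENCODE 29, the source of gene coordinates. Human counts came to 6613880 to 12352064 per library. Replicate pairs differed by more than counting noise (chi-square per degree of freedom 4.07 to 53.2), so none was counted as a duplicate.

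Human genes were fitted in R 4.3.3 with edgeR 4.0.16 (TMM scaling on human totals, filterByExpr at 10 counts and a total of 15, robust glmQLFit, glmQLFTest, Benjamini-Hochberg). This left 18628 genes, with a biological coefficient of variation of 0.184. The model had stage as a block and treatment as the effect. Effects at each stage and their difference came from a fit of 4 group means over the same libraries. Standard errors are the log2 fold change over the root of F. The 95% intervals are normal approximations from these standard errors, and so are narrower than the quasi-likelihood test would give. DESeq2 1.42.0 and limma 3.58.1 (voom) were alternatives. The steps were tested on simulated counts drawn from a common profile with drug effects added. These had no outlying library and no differences in host or mitochondrial share, so that test does not cover such features of the data. Treatment labels were permuted within stage, exactly and two-sided, for shares of counts. Libraries are numbered in accession order, and since the labels do not say whether the code in each title stands for an animal, p-values cover only the spread among these tumours, which may be technical.

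The members and the 32 gene lists (651 genes, 607 tested) were chosen with earlier results of these data known, so list counts are descriptions. Genes were named by these rules: up to 12 per direction that passed with equal signs and a mean log2 CPM of at least 1, ranked by the smaller stage effect; up to 3 per list that passed; and 13 fixed genes. The 5 other genes that passed were added so that all 20 are accounted for, and further genes were named after their values were seen. Promoters are RefSeq's on GRCh38.p14.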

Additional observations from a re-analysis of the deposited data

Results flagged for a closer look

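The effect of palbociclib differed between the stages in MKI67 and ADM. MKI67 had a log2 fold change lower by -2.14 initially than after recovery (95% interval -2.74 to -1.54, edgeR adjusted p = 0.012, or 0.034 without vehicle recovery library 2). ADM, the vasodilator peptide adrenomedullin, is the only member of the hypoxia list with such a difference. It had 5.88, 3.72 and 8.98 CPM against 42.6, 82.3 and 58.7 CPM initially and 63.1, 78.8 and 45.3 CPM against 105, 107 and 106 CPM after recovery. Its effects of -3.30 and -0.77 differed by -2.53 (95% interval -3.34 to -1.71, edgeR adjusted p = 0.037), and without vehicle recovery library 2 the adjusted p was 0.12. The mean over stages was -1.88 (edgeR adjusted p = 0.078).

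The share of counts on mouse genes, which the human gene comparison does not use, was 3.94 percentage points higher in palbociclib tumours over both stages, or 2.59 points without palbociclib initial library 3. That library had the highest share, 25.4%, and vehicle recovery library 1 the lowest, 14.2%. With 3 tumours in each group no tumour was tested as an outlier.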

How the results depend on the processing

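No paired analysis was possible because the labels give no replicate numbers that groups share (the number in each title's code occurs once). Counts of genes past the test moved most. Against 20 (18 lower, 2 higher, 20 with equal signs), the fit of 4 group means called 398 (360 lower, 38 higher, 388 equal), DESeq2 754 (601, 153, 753), voom with sample quality weights 284 (190, 94, 284) and no low-count filter 224 (168, 56, 224). Library totals in place of TMM gave 13 (9, 4, 13) and a stricter filter of 50 counts in 3 libraries gave 26 (22, 4, 26). The mouse share as a covariate called 0, as did the share of the last row that names no gene (adjusted p of 0.10 to 0.14 for the 20 genes, effects 85.9% to 104% of the main ones, 2723 genes at an unadjusted p under 0.05). Without vehicle initial libraries 2 and 3, 1 gene passed, lower, and 0 higher. Leaving out vehicle recovery library 2 as well, chosen after seeing the data, called 1 higher and kept 8 of the 20. The cause was not tested, except that the group means leave the stage difference out of the spread.

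Leaving out 1 library called 0 to 369 genes, 0 to 289 lower, 0 to 80 higher and 0 to 369 with equal signs. The largest count was without vehicle recovery library 1. Genes separated at both stages in the lower direction numbered 331, 220 with library totals and 426 without vehicle recovery library 2, where 3 tumours faced 2. The median log2 fold changes of 7 lists stayed within the replicate spread in every setting but 1, for the matrix list.

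CDKN1A, at -0.03, turned to 0.00237 with voom, 0.0437 with library totals, 0.0563 with the mouse covariate, 0.0484 without vehicle initial libraries 2 and 3, and 0.149 without vehicle recovery library 2 as well. Over single libraries left out it ranged from -0.111 to 0.0509. Depth limits genes of few counts, such as MT1F at 0.445 to 1.99 CPM.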

Other observations

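The genes of this section were chosen one by one after their values were seen, for high or low values at both stages, so they support nothing about a pathway or cell type. None passed the test. CYP4Z1, a cytochrome P450 of breast tissue, had 130, 74.5 and 187 CPM with palbociclib against 38.3, 28.9 and 57.4 CPM initially, and 51.5, 50.7 and 39.1 CPM against 29.8, 4.04 and 18.1 CPM after recovery. The groups did not overlap, and the mean log2 fold change was 1.55 (edgeR adjusted p = 0.078). OLFM4 (1.38), DCD (1.49), SCGB1D2 (1.25), CYP4B1 (1.23), ZG16B (1.03) and the mammaglobin gene SCGB2A2 (0.98) were separated at both stages too, at edgeR adjusted p of 0.074 to 0.13. PIP, the prolactin-induced protein, had 1.43 (edgeR adjusted p = 0.074) with overlapping recovery groups. Vehicle recovery library 2 had the lowest value of the 12 tumours in all 8 of these genes. Without it the recovery effect was 0.96 in place of 1.44 in CYP4Z1 and 0.80 in place of 1.24 in OLFM4, and CYP4B1 passed at 1.02 (edgeR adjusted p = 0.034).

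SRGN, the proteoglycan core protein serglycin, had 0.534, 1.45 and 1.16 CPM against 1.56, 5.27 and 3.16 CPM initially, and 1.76, 0.836 and 1.70 CPM against 5.69, 21.3 and 4.29 CPM after recovery (mean -2.34, edgeR adjusted p = 0.071). C3AR1 (-1.70), MILR1 (-1.76) and PTGS1 (-1.92) had edgeR adjusted p of 0.069 to 0.092. Vehicle recovery library 2 was the highest tumour in all 4, and without it SRGN passed at -1.72 (edgeR adjusted p = 0.022). Immune cell markers of the host list went in different directions after recovery. CSF1R had 5.01 to 10.7 CPM with palbociclib against 8.69 to 16.6 with vehicle, and ADGRE1 0 to 0.0926 against 0.0872 to 0.519 CPM. CD163 had 0 CPM with palbociclib against up to 0.192 with vehicle, and CD68 up to 0.185 against up to 0.0872 CPM. PTPRC had 0.251 to 0.741 CPM with palbociclib after recovery against 0 to 0.192 with vehicle, and ITGAM 0 to 0.648 against 0.0872 to 0.288 CPM, from at most 8 and 7 counts in any library. The assignment of reads shared by human and mouse copies, and its part in these values, was not tested.

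MMP9, a gelatinase, had 16.7, 16.7 and 16.3 CPM in palbociclib initial and 35.8, 207 and 132 CPM in vehicle initial tumours, then 135, 65.0 and 10.7 CPM against 142, 349 and 207 CPM. The groups were separated at both stages, with a mean log2 fold change of -2.29 (edgeR adjusted p = 0.094).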
